A study of Mus musculus with 4 samples.

Results

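Smooth muscle cells rich in Rgs5 transcripts made up 5549 of the 27278 barcodes of mouse aorta that passed limits on depth and mitochondrial RNA, and of 70795 deposited barcodes in all. They were selected on measured values: at least 2000 unique molecular identifiers (UMIs, each marking 1 captured transcript molecule), at most 10% mitochondrial UMIs, at least 3% of UMIs from Acta2, Tagln, Myh11 and Myl9, at least 5 UMIs of Rgs5, at most 2 UMIs of C1qa, C1qb and C1qc together and at most 1 of Pecam1 and Cdh5 together. The levels of those 10 genes therefore describe the selection and were not tested. The 6312 barcodes that met the same limits with fewer than 5 Rgs5 UMIs are called Rgs5-low smooth muscle and served as the comparison.

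Aortas were digested with collagenases and liberase and profiled with a 10x Genomics 3' kit. There was 1 library for each of 4 groups: WT mice on a normal diet, LysM-DKO mice on a normal diet, WT/ApoE-/- mice on a western diet and LysM-DKO/ApoE-/- mice on a western diet, and where 4 values follow one another they are in this order. LysM denotes a promoter of the myeloid lineage, the labels do not spell out the deleted genes of the double knockout (the series title names epsins), and neither age nor the number of animals behind a library is given. Western diet goes with the ApoE-/- genotype, with another version of the authors' software and with the sex of the cells (Xist at 736, 748, 0.31 and 0.43 CPM in members, Ddx3y at 0, 0, 125 and 118 CPM; CPM is the count of a gene per 1000000 UMIs), so these cannot be told apart.

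Rgs5 encodes a regulator of G-protein signalling, a family of proteins that speed up the return of active G-protein alpha subunits to their resting state and so shorten the response of vascular cells to vasoconstrictor hormones. It is a well-known mark of pericytes, the mural cells of small vessels, and of part of the arterial smooth muscle. Kcnj8 (the Kir6.1 pore) and Abcc9 (the SUR2 regulatory subunit) together form the vascular ATP-sensitive potassium channel, and in many tissues they mark pericytes beside Rgs5.

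Members numbered 584, 444, 1452 and 3069 in the 4 libraries. They held between 3968834 and 23391253 UMIs per library, so that the limit set by a count of 0 (3 UMIs) lay between 0.128 and 0.756 CPM. Their median depth was 8390, 8786, 6287.5 and 7280 UMIs, against 8205, 7743, 5796 and 6832 in Rgs5-low smooth muscle, so members were somewhat deeper in every library. Scrublet scores marked 22, 12, 125 and 220 members as possible doublets, which were kept, and of 469 barcodes shared between pairs of libraries 4 were members in both. The epsin genes Epn1 (30.6, 30.5, 23.3 and 23.3 CPM) and Epn2 (117, 128, 132 and 92.9 CPM) check no label here, since members are not of the myeloid lineage and the deleted stretch is not given. The WT/ApoE-/- western diet library stood apart: it held 29724 deposited barcodes of which 7149 passed, and matrix and fibroblast transcripts were high in all its cell classes (Lum, a fibroblast proteoglycan, stood at 366 CPM even in its lymphocyte barcodes against 32.7, 61.5 and 186 CPM in the other libraries).

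Rgs5 was spread widely among members, with a median of 21, 16, 15 and 23 UMIs per barcode and a maximum of 204, 198, 171 and 375. Barcodes with 25 or more Rgs5 UMIs made up 46.1%, 35.1%, 31.2% and 47.3% of members. Just outside the limit, at 4 Rgs5 UMIs, lay 46, 45, 132 and 208 smooth muscle barcodes, and just inside, at 5, lay 30, 46, 125 and 167, so the limit cuts through a continuous range. A further 115, 89, 228 and 383 members lay within 3 to 3.5% contractile UMIs, with 87, 69, 201 and 188 Rgs5-rich barcodes just short of that limit at 2.5 to 3%. Some Rgs5 reached cells that are not mural: 38.5%, 52.9%, 20.1% and 48.0% of lymphocyte barcodes held at least 1 Rgs5 UMI at median depths of 3490, 3680, 2527 and 2739, although 5 or more were seen in 9 of 1087, 18 of 1383 and 1 of 363 of them in the first 3 libraries (the fourth library had 25 lymphocyte barcodes).

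**Figure D1:**
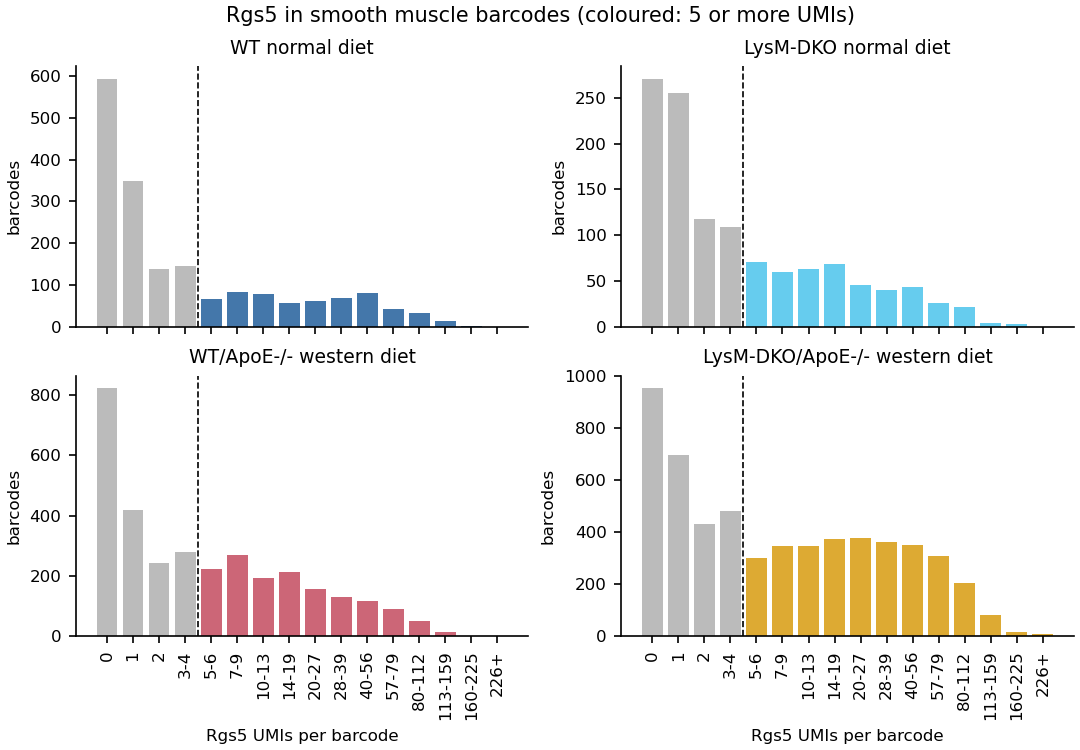
Rgs5 UMIs per smooth muscle barcode in the 4 libraries, with the limit of 5 UMIs that separates members from Rgs5-low smooth muscle (dashed; bins widen with the count, and each panel has its own scale). No library shows a gap at the limit, and median member values lie between 15 and 23 UMIs.

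The label of smooth muscle held against genes that the selection did not use. Cnn1, which encodes the actin-binding protein calponin, stood at 1752, 1743, 1543 and 1670 CPM in members and at 984, 743, 714 and 1215 CPM in all other passing barcodes. Lmod1, an actin nucleator of smooth muscle, stood at 857, 792, 669 and 716 CPM in members against 469, 353, 381 and 603 CPM in those other barcodes. Both genes stood higher in members in each of the 4 libraries, as did the smoothelin gene Smtn, the desmin gene Des and Synpo2. Against Rgs5-low smooth muscle these 5 genes summed to 3690 to 4193 CPM in members and 3811 to 4152 CPM, with 1 called higher (Des), and the ranges of the classes overlapped.

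Of the pericyte markers beyond the shared mural ones, Higd1b, Vtn, Ndufa4l2 and Atp13a5 were near 0. Cox4i2, Steap4, Colec11, Anpep and P2ry14 were low, at no more than 11.2 CPM in any library, while Rgs4 was not. Higd1b gave 2, 2, 2 and 6 UMIs in all members of a library, Vtn gave 0, 4, 6 and 0, and Ndufa4l2 gave 3, 2, 10 and 10, while Atp13a5 gave none. Cox4i2, a lung-type subunit of cytochrome c oxidase, gave 12, 13, 108 and 192 UMIs (2.35, 3.28, 11.2 and 8.21 CPM), against 3.54, 5.35, 9.46 and 7.55 CPM in Rgs5-low smooth muscle. Steap4, a metalloreductase, stood at 0.589, 1.51, 9.83 and 0.684 CPM, highest in WT/ApoE-/-, and at 1.25, 2.84, 3.92 and 1.60 CPM in Rgs5-low smooth muscle. Rgs4, a relative of Rgs5, stood at 117, 117, 97.5 and 109 CPM in members and between 93.9 and 103 CPM in Rgs5-low smooth muscle. Colec11, Anpep and P2ry14 stood between 0.257 CPM (Colec11 in LysM-DKO/ApoE-/-) and 4.54 CPM (Colec11 in LysM-DKO). Mural genes that smooth muscle and pericytes share were present at moderate levels: the PDGF receptor Pdgfrb at 132, 124, 108 and 88.5 CPM, the proteoglycan Cspg4 at 278, 307, 287 and 252 CPM and Notch3 at 28.1, 32.5, 31.4 and 26.0 CPM. Higd1b and Vtn were thus within a few UMIs of the limit that a count of 0 allows, while the shared mural genes were not.

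Kcnj8 and Abcc9 behaved differently from those defining genes. Kcnj8 (chr6:142564837-142571614, minus strand, GRCm38) stood at 24.1, 28.0, 39.4 and 41.0 CPM in members and at 14.8, 18.9, 26.0 and 28.0 CPM in Rgs5-low smooth muscle. The log2 difference was 0.60 ± 0.06 (SE, n = 4 libraries), and the edgeR quasi-likelihood test with the library as a block gave an adjusted p of 2.45e-05 (Benjamini-Hochberg). Members were higher in all 4 libraries, although the ranges of the 2 classes over libraries overlapped.

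The share of members with at least 1 Kcnj8 UMI was 18.7%, 20.7%, 21.1% and 24.2% (exact 95% binomial intervals from 15.6 to 22.1% in the first library and from 22.7 to 25.7% in the last; these and all other intervals cover counting error only). It was 11.7%, 12.4%, 13.0% and 16.9% in Rgs5-low smooth muscle and 2.48%, 2.24%, 0.826% and 4.0% in lymphocytes, which should lack the gene and were shallower. With every barcode thinned to 2000 UMIs the shares in members were 3.94%, 7.21%, 8.13% and 7.66%, against 2.85%, 3.85%, 4.87% and 4.91% in Rgs5-low smooth muscle and 1.01%, 1.59% and 0.826% in the lymphocytes of the first 3 libraries. Most members therefore carried no Kcnj8 UMI at this depth, and the share was still above that of Rgs5-low smooth muscle at equal depth in each library. The thinned intervals overlapped in WT normal diet (2.51 to 5.85% in members against 1.99 to 3.94%) and LysM-DKO normal diet (4.98 to 10.0% against 2.59 to 5.48%). They did not overlap in the western diet libraries.

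Abcc9 (chr6:142587862-142702315, minus strand, close to Kcnj8) was the more abundant subunit transcript at 207, 214, 276 and 250 CPM in members and 193, 167, 256 and 227 CPM in Rgs5-low smooth muscle. Its log2 difference of 0.17 ± 0.04 (SE) passed edgeR's quasi-likelihood test at an adjusted p of 0.0237 but rested on the full set of libraries. The adjusted p was 0.0664 without WT normal diet, 0.103 without LysM-DKO normal diet, 0.113 without LysM-DKO/ApoE-/-, 0.0922 with DESeq2 and 0.321 after thinning. At least 1 Abcc9 UMI was found in 71.7%, 74.5%, 75.2% and 79.5% of members, in 69.3%, 64.5%, 67.9% and 73.0% of Rgs5-low smooth muscle and in 14.5%, 15.8%, 6.89% and 4.0% of lymphocytes, so Abcc9 marked smooth muscle of either class.

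Of the 13 pericyte genes tested, 2 were higher in members (Kcnj8 and Abcc9) and 0 lower by edgeR's quasi-likelihood test (2 lower at an unadjusted p under 0.05; DESeq2 called 1 higher and 0 lower), with a median log2 difference of 0.04. The summed level of the list was 1006 to 1173 CPM in members and 940 to 1129 CPM in Rgs5-low smooth muscle.

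Barcodes with 5 or more Rgs5 UMIs that fell short of the contractile limit gave a contrast to members. Those with under 1.5% contractile UMIs numbered 77, 95, 95 and 51, a class drawn after the values were seen and described without a test. Higd1b stood there at 23.9, 13.5, 0 and 0 CPM (9, 8, 0 and 0 UMIs), Ndufa4l2 at 29.2, 57.3, 10.4 and 42.0 CPM, and Pdgfrb at 343, 292, 218 and 146 CPM. Kcnj8 was at 66.4, 30.3, 77.3 and 65.8 CPM in them, above its level in members of the same library in all 4. In the western diet libraries these barcodes also carried Lum at 5760 and 1978 CPM, so the class is not of 1 kind across diets.

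Across 13500 genes tested between members and Rgs5-low smooth muscle, 340 (2.52%) were higher and 360 (2.67%) lower in members at an adjusted p under 0.05. The test was edgeR's quasi-likelihood test on UMIs summed per library and class, with Benjamini-Hochberg adjustment over all genes. The median log2 difference over all genes was 0.00. Each p-value asks what held over these 4 libraries, which differ in genotype and diet. DESeq2 called 178 genes higher and 160 lower, and thinning every barcode to 2000 UMIs left 196 higher and 172 lower. The counts also moved with single libraries: without WT normal diet they were 219 and 181, and without LysM-DKO/ApoE-/- 200.0 and 174.

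Among the gene lists compared here, that of body position held the most genes higher in members. Hox genes encode transcription factors that are laid out in 4 clusters and expressed in order along the head-to-tail axis, those with higher numbers toward the tail. Of 27 Hox genes listed, 24 passed the filter on low counts, and 17 of these were higher in members and 0 lower (edgeR quasi-likelihood; 0 lower also at an unadjusted p under 0.05, and DESeq2 called 14 higher and 0 lower). The median log2 difference of the list was 0.67 beside 0.00 for all genes.

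The difference followed the number of the gene within its cluster. Among Hox genes numbered 1 to 4, 1 of 8 was higher, with a median log2 difference of 0.15. Among those numbered 5 to 7, 7 of 7 were higher with a median of 0.61. Among those numbered 8 to 10, 9 of 9 were higher with a median of 3.69 and a range from 0.46 to 5.91. The summed level of genes 8 to 10 was 128, 96.0, 117 and 124 CPM in members and 15.6, 20.9, 26.0 and 15.0 CPM in Rgs5-low smooth muscle, without overlap. The summed level of genes 1 to 4 was 169, 145, 139 and 155 CPM in members and 153, 127, 141 and 141 CPM in Rgs5-low smooth muscle, so the anterior genes were at a similar level in both classes.

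**Figure D2:**
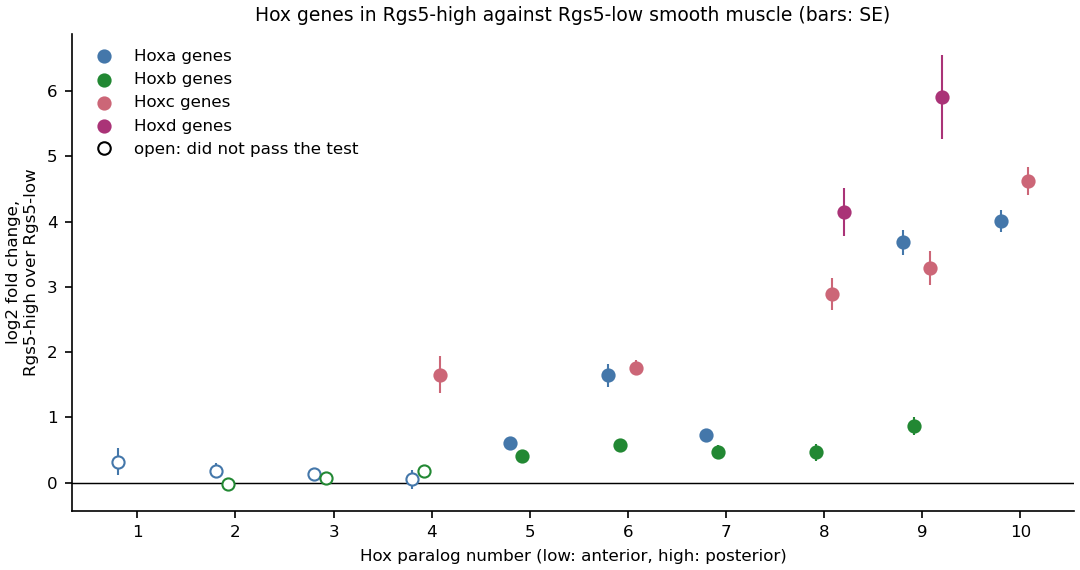
Log2 difference between members and Rgs5-low smooth muscle for each Hox gene tested, ordered by the number of the gene in its cluster, with bars of 1 SE; filled points passed the test. Medians go from 0.15 for genes 1 to 4, through 0.61 for genes 5 to 7, to 3.69 for genes 8 to 10.

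Hoxc10 (chr15:102966796-102971893, plus strand) stood at 35.1, 28.2, 29.0 and 33.0 CPM in members and 0.766, 1.84, 2.48 and 0.661 CPM in Rgs5-low smooth muscle (log2 difference 4.63 ± 0.21, SE; edgeR adjusted p 8.69e-09). Hoxa10 (chr6:52231197-52240854, minus strand) stood at 30.0, 19.7, 27.1 and 28.9 CPM against 0.671, 1.67, 2.29 and 1.93 CPM (4.02 ± 0.17; edgeR adjusted p 4.21e-09). Hoxa9 stood at 15.9, 14.4, 16.3 and 18.5 CPM against 0.766, 1.34, 2.29 and 0.992 CPM (3.69 ± 0.19; edgeR adjusted p 3.55e-08). For these 3 genes the lowest member library lay far above the highest Rgs5-low library.

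The rest of the posterior set came from all clusters. Hoxc8 and Hoxc9 were higher by 2.90 and 3.29 on the log2 scale (edgeR adjusted p 3.01e-06 and 1.34e-06), and Hoxd8 by 4.15, from 248 UMIs in members and 14 in Rgs5-low smooth muscle (edgeR adjusted p 4.41e-06). Hoxd9 gave 10, 10, 14 and 52 UMIs in members and 0, 0, 1 and 0 in Rgs5-low smooth muscle, a pooled ratio of 92.0-fold with an exact interval of 16.1 to 3674. The B cluster differed least: Hoxb9 was higher by 0.87 and Hoxb5 to Hoxb8 by 0.41 to 0.57. Of these, Hoxb5, Hoxb7 and Hoxb8 lost their call without WT normal diet (adjusted p 0.0683, 0.0784 and 0.237) and without LysM-DKO/ApoE-/- (0.21, 0.301 and 0.271), Hoxb7 also without LysM-DKO normal diet (0.0594), and Hoxc4 (log2 difference 1.66) without LysM-DKO/ApoE-/- (0.0731).

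At least 1 UMI of a Hox gene numbered 8 to 10 was found in 51.2%, 41.2%, 41.1% and 43.6% of members. The share was 10.8%, 11.8%, 12.4% and 9.1% in Rgs5-low smooth muscle and 2.8%, 2.6%, 3.0% and 4.0% in lymphocytes. Whether the authors' counting used the strand is not given in the sources used here, and some Hox genes overlap others in the annotation (Hoxc5 spans Hoxc6 to Hoxc10, and Hoxa3 to Hoxa6 overlap), so the split of reads among those neighbours is uncertain. The same holds for Abcc9, Fn1 and Hand2, each of which overlaps a gene on the other strand. Hoxa10, Hoxd9 and Hoxb7 to Hoxb9 overlap no other annotated gene.

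Among transcription factors of the heart, Hand2, Tbx20 and Gata4 went the other way. Hand2, which acts in heart and branchial arch development, stood at 5.69, 8.31, 6.31 and 6.20 CPM in members and 27.4, 32.6, 20.8 and 42.7 CPM in Rgs5-low smooth muscle (log2 difference -2.35 ± 0.14, SE; edgeR adjusted p 8.15e-08). Tbx20, a T-box factor of the heart, stood at 5.49, 6.05, 8.38 and 4.36 CPM against 15.2, 16.5, 23.2 and 13.8 CPM (-1.53 ± 0.10; edgeR adjusted p 3.29e-07). Gata4 gave 5 UMIs in all members and 56 in Rgs5-low smooth muscle, a pooled ratio of 0.0955 with an exact interval of 0.0298 to 0.236. For each of the 3 factors the values of the 2 classes did not overlap over libraries.

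In the whole list of 24 regional transcription factors tested, 3 were higher and 5 lower in members and 16 did not pass. The median log2 difference was -0.08. The higher ones were Nr2f2 (0.43; edgeR adjusted p 6.5e-06), which encodes the venous and mesenchymal factor COUP-TFII, Prrx1 (0.36; 5.7e-05), a homeobox factor of mesenchyme, and Foxc1 (0.19; 0.0044). Klf4 and Tbx3 were the other 2 lower genes, at -0.21 and -1.09. Foxc1 lost its call without LysM-DKO/ApoE-/- (adjusted p 0.0799), and Klf4 and Tbx3 each lost theirs without 3 of the libraries in turn (0.0534 to 0.131).

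Among cardiac muscle genes, Tnnt2 and Actc1 were lower in members and 6 others tested did not pass. Tnnt2, cardiac troponin T, stood at 17.7, 45.9, 17.7 and 26.7 CPM in members against 42.8, 81.9, 69.8 and 83.8 CPM in Rgs5-low smooth muscle (log2 difference -1.51 ± 0.11, SE; edgeR adjusted p 1.16e-06). The 8 cardiomyocyte genes tested had a median log2 difference of -0.12, with cardiac actin Actc1 at -1.45 (adjusted p 0.123 without WT normal diet), and the summed list stood at 125 to 180 CPM in members and 189 to 222 CPM in Rgs5-low smooth muscle. Pln, the phospholamban gene that restrains the calcium pump of the sarcoplasmic reticulum, stood at 11.6, 9.83, 8.28 and 6.07 CPM against 21.7, 38.5, 25.6 and 20.3 CPM (-1.58; edgeR adjusted p 1.37e-06). The part of cardiomyocyte RNA in these differences was not tested.

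The contractile genes outside the selection did not, as a list, separate the classes. Both classes had to pass the same limit on Acta2, Tagln, Myh11 and Myl9, and the part of this limit in the similarity was not tested. Of 21 contractile genes tested, 3 were higher and 3 lower with a median log2 difference of -0.02. Cnn1 differed by 0.02 (edgeR adjusted p 0.801), at the CPM given above in members against 1766, 1741, 1505 and 1629 CPM in Rgs5-low smooth muscle. Hspb1, a small heat shock protein that binds actin, was higher by 0.44 (edgeR adjusted p 4.7e-05), and so was the intermediate filament gene Des (0.0338), which DESeq2 did not call (0.765). Mylk, the myosin light chain kinase that triggers contraction, was lower, with a log2 difference of -0.13 (edgeR adjusted p 0.0042; 0.0703 without LysM-DKO/ApoE-/-).

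Among genes with at least 50 CPM in the higher class and the same direction in all 4 libraries, the 3 with the largest difference toward members were Fn1, P2rx1 and Vegfd. Fn1 (chr1:71585520-71653200, minus strand), fibronectin, stood at 1763, 1871, 3429 and 3254 CPM in members and 658, 814, 1473 and 1057 CPM in Rgs5-low smooth muscle (log2 difference 1.37 ± 0.05, SE; edgeR adjusted p 1.97e-09). P2rx1, the channel through which ATP from sympathetic nerves acts on smooth muscle, stood at 32.8, 61.5, 77.9 and 82.7 CPM against 12.9, 33.8, 37.6 and 26.0 CPM (1.30 ± 0.10; edgeR adjusted p 1.37e-06). Vegfd, a growth factor for lymphatic vessels, stood at 67.7, 46.4, 57.7 and 44.1 CPM against 29.8, 22.4, 24.7 and 15.3 CPM (1.29 ± 0.07; edgeR adjusted p 6.23e-08). Members were higher within each library for all of them, and for Fn1 and Vegfd the classes did not overlap across libraries either.

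Tnc, the matrix protein tenascin-C, was at 145, 128, 210 and 121 CPM in members against 72.5, 66.7, 117 and 45.8 CPM (1.06 ± 0.07; edgeR adjusted p 4.61e-07). The other 8 named genes were higher by 0.71 to 0.90 on the log2 scale: the actin-bundling gene Palld, the cadherin Cdh11, the membrane mucin Parm1, the ephrin receptor Epha3, the ADAMTS family genes Adamts8 and Adamtsl3, Ccdc68 and Map3k7cl. Each passed edgeR's quasi-likelihood test, with adjusted p-values from 5.15e-07 to 4.6e-05.

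**Figure D3:**
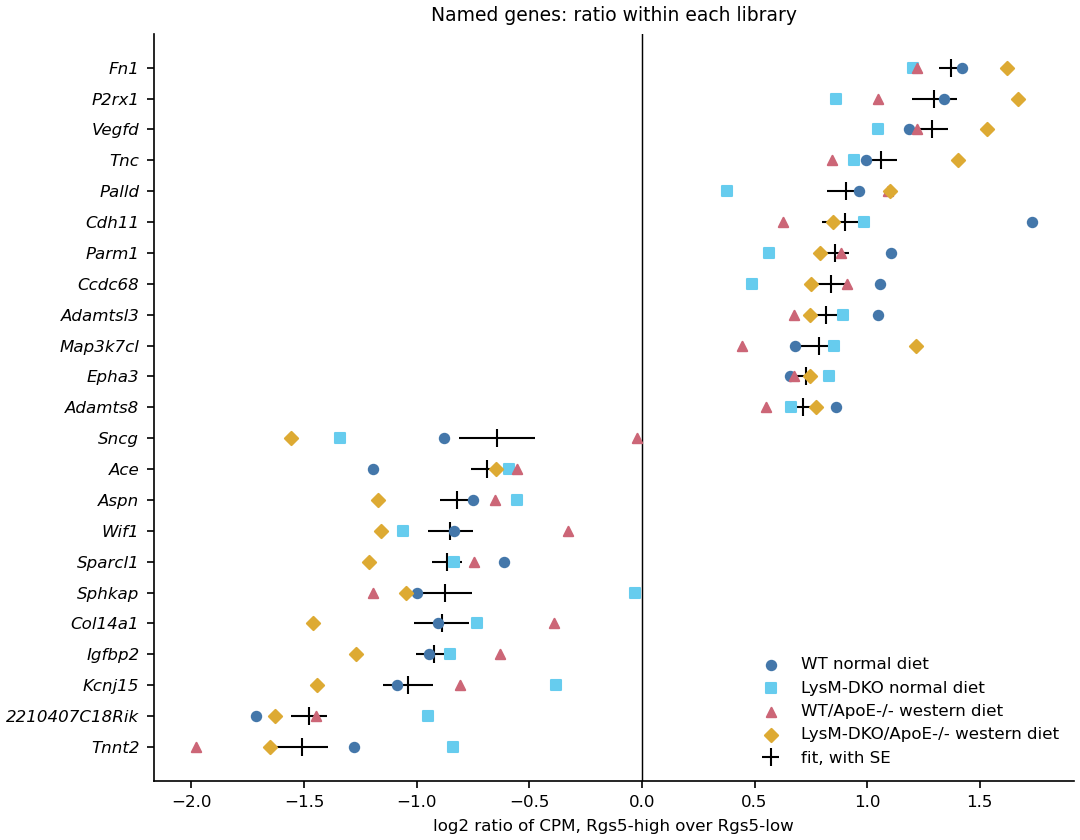
Log2 ratio of CPM between members and Rgs5-low smooth muscle within each library (coloured points) for named genes higher and lower in members, with the fitted difference and its SE (black). All points of the upper genes lie right of 0 and all of the lower ones left of it, with fits from 1.37 for Fn1 to -1.51 for Tnnt2.

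Lower in members beside Tnnt2 were several genes of secreted and membrane proteins, and some others. Sparcl1, a matricellular protein, stood at 237, 262, 133 and 158 CPM against 363, 467, 223 and 365 CPM in Rgs5-low smooth muscle (log2 difference -0.86; edgeR adjusted p 1.43e-06). The potassium channel Kcnj15 differed by -1.04, the insulin-like growth factor binding protein Igfbp2 by -0.92, the collagen Col14a1 by -0.89, the Wnt inhibitor Wif1 by -0.85, the proteoglycan Aspn by -0.82 and angiotensin-converting enzyme Ace by -0.69. Sphkap (-0.87), 2210407C18Rik (-1.48) and Sncg (-0.64) were lower as well. The call of Sncg was lost without WT normal diet (edgeR adjusted p 0.306), without LysM-DKO normal diet (0.137) and without LysM-DKO/ApoE-/- (0.16).

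Some receptors for vasoactive hormones were higher in members. Of 28 tested, 7 were higher, 1 was lower and 20 did not pass, with a median log2 difference of 0.15. The shares over all genes were 2.52% higher and 2.67% lower. Ptger3, a prostaglandin E2 receptor that couples to inhibitory G proteins, stood at 22.4, 11.1, 24.5 and 15.6 CPM in members against 4.98, 4.85, 7.64 and 3.36 CPM (1.91; edgeR adjusted p 5.33e-07). Adra1a, an alpha-1 adrenoceptor, stood at 5.49, 2.02, 4.24 and 5.43 CPM against 0.958, 0.836, 1.05 and 1.10 CPM (2.18; edgeR adjusted p 2.45e-05). Agtr1b, an angiotensin II receptor, stood at 4.12, 2.02, 3.83 and 4.45 CPM against 0.479, 1.34, 0.86 and 0.661 CPM (2.32; edgeR adjusted p 0.00021). For each of these 3 genes every member library lay above every Rgs5-low library. The gap was narrow for Agtr1b, at 2.02 CPM in members and 1.34 CPM in Rgs5-low smooth muscle of LysM-DKO normal diet. The call of Adra1a was lost without barcodes holding Kcnj8 or Abcc9 (edgeR adjusted p 0.353).

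Avpr1a, the vascular vasopressin receptor, gave 57 UMIs in members and 5 in Rgs5-low smooth muscle, a pooled ratio of 12.2-fold with an exact interval of 4.93 to 39.0. P2rx1, Calcrl (the shared subunit of the receptors for CGRP and adrenomedullin; 0.37, edgeR adjusted p 0.00081) and P2ry6 (0.64, edgeR adjusted p 0.0025; 0.0762 without LysM-DKO/ApoE-/-) were the other higher members of the list. Npy1r, a receptor for neuropeptide Y, was the gene that was lower, at 143, 241, 160 and 180 CPM against 215, 283, 224 and 291 CPM (-0.51; edgeR adjusted p 2.45e-05). Apart from P2rx1, Npy1r and Calcrl these receptors lay under 25 CPM in members.

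Other regulators of G-protein signalling differed in part. Of 25 genes of the RGS family and G-protein signalling tested, 5 were higher and 2 lower, with a median log2 difference of 0.05. Rgs17 stood at 40.2, 40.6, 41.2 and 55.1 CPM in members against 19.7, 22.4, 26.7 and 22.4 CPM (edgeR adjusted p 6.1e-06). Rgs4, another RGS gene of mural cells, differed by 0.16 (edgeR adjusted p 0.0509). The subunits of soluble guanylate cyclase, the nitric oxide receptor, were both lower: Gucy1a1 at a log2 difference of -0.31 (228 against 282 mean CPM; edgeR adjusted p 8e-05) and Gucy1b1 at -0.22 (0.001).

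Ion channels as a group showed no common direction. Of 12 potassium channel genes tested 3 were higher and 1 lower (median log2 difference 0.01): Kcnj8 and Abcc9, Kcnma1 at 0.17, whose call was lost without WT normal diet (adjusted p 0.142) and without LysM-DKO/ApoE-/- (0.13), and the regulatory subunit Kcne4 at -0.48. Of 16 calcium and other channel genes 3 were higher (Cacnb2, Atp2b1 and Cacna2d1, by 0.15 to 0.27) and 1 lower (Cacna1h), with a median of -0.03, and DESeq2 called none of those 4. The call of Cacna1h was lost when any 1 library was left out (adjusted p 0.0571 to 0.193), those of Cacna2d1 and Cacnb2 without WT normal diet (0.21 and 0.113), Cacna2d1 also without LysM-DKO normal diet (0.0634), and all 3 higher genes without LysM-DKO/ApoE-/- (0.185 to 0.365).

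Matrix genes were split. Of 47 elastic fibre and matrix genes tested, 8 were higher and 6 lower, with a median log2 difference of 0.04. Beside Fn1 and Tnc, the basement membrane gene Nid1 was higher by 0.67, the proteoglycan Vcan by 0.40, Col6a3 by 0.32 and the calcification inhibitor Mgp by 0.24 (7533 against 6407 mean CPM; edgeR adjusted p 1.09e-05). Beside Col14a1 and Sparcl1, the aggrecan gene Acan was lower at -0.78 (adjusted p 0.0831 without WT normal diet and 0.0839 without LysM-DKO/ApoE-/-), the microfibril gene Mfap4 at -0.43 and Col15a1 at -0.36, while Eln and the fibrillar collagens were not called.

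Further lists gave 0 to 5 calls in each direction. Over all genes tested, 2.52% were higher and 2.67% lower. Of 15 Notch pathway genes 1 was higher (Notch2, 0.34) and 2 lower (Nrip2, -1.31, and Nrarp, neither called by DESeq2), with a median of -0.06. Of 28 PDGF and TGF-beta genes 1 was higher (Ltbp1) and 3 lower (Tgfbr3, Id3 and Ltbp4), with a median of -0.06. Of 22 inflammatory genes 0 were higher (3 at an unadjusted p under 0.05; DESeq2 0) and 5 lower, among them Il6 (-0.96), Ptgs2 (-0.68) and Csf1 (-0.30), with a median of -0.10. Of 25 lipid genes 2 were higher (among them Sqle, 0.40, of cholesterol synthesis) and 3 lower (the lipase Lpl, -1.39, Apoe, -0.86, and the efflux pump Abca1, -0.41), with a median of -0.04. The western diet libraries are ApoE-/- by their labels, so only the normal diet libraries hold the intact Apoe gene. DESeq2 did not call Apoe (log2 difference -0.50). Leaving out WT normal diet ended the calls of Nrarp (adjusted p 0.0782) and Sqle (0.0638), leaving out LysM-DKO normal diet those of Nrarp (0.179) and Il6 (0.144), and leaving out LysM-DKO/ApoE-/- those of Nrip2, Ltbp1, Ltbp4, Tgfbr3, Csf1 and Sqle (0.075 to 0.122).

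Of 20 genes of smooth muscle modulation, the change in state described in plaques, 2 were higher (Fn1 and Spp1) and 3 lower (Acan, Vcam1 and Klf4), with a median of 0.06. Spp1, osteopontin, rested on 1 library: its log2 difference was 0.96 (edgeR adjusted p 0.0015) and 0.03 without WT/ApoE-/- (adjusted p 0.972). Of 19 hypoxia and glycolysis genes 2 were higher (Ndrg1, 0.59, and Higd1a, 0.27) and 2 lower (Adm, -0.50, and Gapdh, -0.12), with a median of 0.02. Of 18 dissociation stress genes 3 were higher (Hspb1, Hspa1b and Hspa1a) and 2 lower (Junb and Nr4a1), with a median of -0.01. The calls of Vcam1, Klf4, Gapdh and Nr4a1 were lost without WT normal diet, without LysM-DKO normal diet and without LysM-DKO/ApoE-/- in turn (adjusted p 0.0616 to 0.342), those of Acan, Junb and Hspa1b without the first or the last of these (0.0566 to 0.105), and that of Higd1a without WT normal diet (0.0559).

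Summed markers of macrophages, lymphocytes, endothelial cells and Schwann cells were low in both classes. Fibroblast, erythroid, adipocyte and chondrocyte sums reached higher levels in some or all libraries. Both classes had to pass the same limits on the C1q genes and on Pecam1 and Cdh5. How far these limits set the low macrophage and endothelial sums was not tested. The 6 macrophage genes tested summed to 9.62 to 32.6 CPM in members and 10.3 to 24.9 CPM in Rgs5-low smooth muscle, the 8 lymphocyte genes to 1.41 to 21.7 and 0.716 to 30.8 CPM, and the 5 erythroid genes to 52.0 to 934 and 9.42 to 1247 CPM. For these 3 lists edgeR called 0 genes, with 0 at an unadjusted p under 0.05 and 0 by DESeq2. The 5 endothelial genes summed to 33.8 to 50.1 CPM in members and 40.6 to 57.9 CPM in Rgs5-low smooth muscle with 1 lower (Flt1), and the 9 fibroblast genes to 1011 to 2586 and 1212 to 1911 CPM with 1 lower (Gsn). The 6 Schwann cell genes summed to 10.4 to 24.7 and 9.20 to 39.5 CPM with 1 higher (Gpm6b) and 1 lower, the 7 chondrocyte genes to 44.3 to 301 and 66.3 to 180 CPM with 1 lower (Acan) and the 5 adipocyte genes to 247 to 361 and 273 to 426 CPM with 1 lower (Lpl). The call of Flt1 was lost without WT normal diet (adjusted p 0.0538) or LysM-DKO/ApoE-/- (0.165). The part of RNA from these cells in the differences between members and Rgs5-low smooth muscle was not tested.

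Within the smooth muscle gate the same genes were followed over classes of rising Rgs5 count, chosen after the values were seen and given without a test because Rgs5 defined them. The summed level of Hox genes 8 to 10 went from 11.0 CPM at 0 Rgs5 UMIs, through 44.5 CPM at 5 to 9, to 200.4 CPM at 50 or more in WT normal diet. The corresponding levels were 21.7, 36.7 and 205 CPM in LysM-DKO normal diet, 17.6, 58.4 and 234 CPM in WT/ApoE-/- and 10.8, 27.1 and 240.3 CPM in LysM-DKO/ApoE-/-. At 50 or more Rgs5 UMIs, 74.8%, 80.3%, 78.2% and 78.5% of barcodes held a UMI of these Hox genes, so most of the Rgs5-richest members carried posterior Hox transcripts. At the limit itself their level was 16.5, 39.0, 55.6 and 26.3 CPM at 4 Rgs5 UMIs and 55.0, 40.1, 53.1 and 30.3 CPM at 5.

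The sum of Gata4, Hand2, Tbx20 and Tnnt2 went the other way, from 95.3, 147, 140 and 163 CPM at 0 Rgs5 UMIs to 8.89, 28.9, 9.57 and 13.8 CPM at 50 or more. At the limit this sum was 47.2, 55.7, 58.4 and 65.3 CPM at 4 Rgs5 UMIs and 161, 179, 42.5 and 85.1 CPM at 5. It was thus higher just inside the limit than just outside in all libraries but WT/ApoE-/-. From 0 to 50 or more Rgs5 UMIs, Fn1 went from 620, 812, 1385 and 1001 CPM to 2899, 3071, 5548 and 5766 CPM. Cnn1 stayed between 1448 and 1855 CPM over all 24 classes of count and library. Kcnj8 was highest at 50 or more Rgs5 UMIs in 3 libraries, at 34.7, 39.9 and 50.2 CPM, and at 10 to 24 in WT/ApoE-/- (48.1 CPM). The highest Abcc9 values were in the class of 10 to 24 Rgs5 UMIs in all 4 libraries, at 236, 234, 278 and 268 CPM. Their counting intervals overlapped those of the classes next to it in every library. In WT/ApoE-/- Abcc9 was nearly flat, between 273 and 278 CPM from 1 to 4 Rgs5 UMIs upward.

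**Figure D4:**
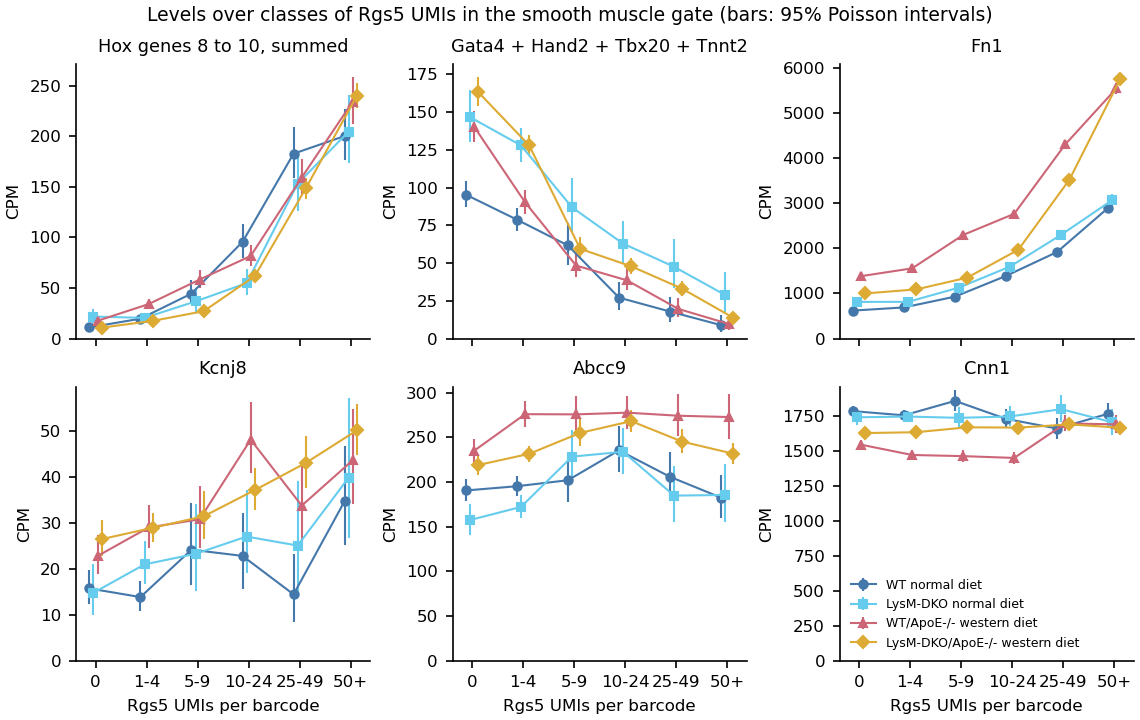
Level in CPM of the posterior Hox genes (8 to 10), of Gata4, Hand2, Tbx20 and Tnnt2 together, of Fn1, Kcnj8, Abcc9 and Cnn1 over classes of Rgs5 UMIs per smooth muscle barcode, 1 line per library with exact 95% Poisson intervals. From 0 to 50 or more Rgs5 UMIs the posterior Hox genes and Fn1 are higher at the end than at the start in all 4 libraries, the cardiac group is lower, and Cnn1 stays between 1448 and 1855 CPM.

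Members also varied among themselves in the channel genes. Members with at least 1 UMI of both Kcnj8 and Abcc9 numbered 83, 71, 257 and 620, and members with neither 139, 92, 310 and 508. The first class was deeper, with a median of 8886, 9535, 7668 and 7766 UMIs against 6620, 7588.5, 4819.5 and 6564, so the split goes with depth. Of 9500 genes tested between them, 14 (0.147%) were higher and 9 (0.0947%) lower in the double-positive class by edgeR's quasi-likelihood test at an adjusted p under 0.05. DESeq2 called 0 higher (49 at an unadjusted p under 0.05) and 2 lower, and after thinning 2 were higher and 10 lower, so most single-gene calls here depended on the tool or the depth. Without WT normal diet the counts were 35 and 23, without LysM-DKO normal diet 23 and 17, and without LysM-DKO/ApoE-/- 24 and 13.

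Higher in the double-positive members of all 4 libraries were 8 genes, led by the Wnt modulator Sfrp2 at 61.6, 77.7, 166 and 54.8 CPM against 30.8, 42.2, 100.6 and 36.8 CPM (log2 difference 0.69; edgeR adjusted p 0.000229). The Wnt antagonist Sost stood at 879, 1286, 637 and 762 CPM against 585, 805, 634 and 628 CPM (0.34; edgeR adjusted p 0.0124, and 0.0884 without LysM-DKO normal diet). The others were Kcnj15, Itih4, Fgl2, Neat1, Ncam1 and Fos, by 0.23 to 0.63. With DESeq2, which called 0 genes higher, Sfrp2 and Fos had adjusted p-values of 0.145 and 0.0898. After thinning, their edgeR adjusted p-values were 0.436 and 0.479. Itih4, Fgl2 and Ncam1 lost their call without WT/ApoE-/- (adjusted p 0.158, 0.0643 and 0.0576), Ncam1 also without LysM-DKO/ApoE-/- (0.467) and Neat1 without WT normal diet (0.128). Serpina3n, Lcn2, C3, Mmp3 and Lum, which were called higher as well, were high in the WT/ApoE-/- library and low in the rest (Serpina3n at 224 against 50.9 CPM in that library and at 5.07 CPM or less in the others). The inducible heat shock genes Hspa1a and Hspa1b and Hspb1 were among those lower, at log2 differences of -0.36 to -0.42, together with the ribosomal RNA features Gm42418 and AY036118. None of the posterior Hox genes was among the called genes.

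The share of members among smooth muscle barcodes was 32.2%, 37.1%, 45.1% and 54.5%, with exact 95% binomial intervals of 30.1 to 34.5%, 34.3 to 39.9%, 43.4 to 46.9% and 53.1 to 55.8%. Median depth and Rgs5 level go into this share, and with each barcode thinned to 2000 UMIs and at least 2 Rgs5 UMIs it was 28.8%, 31.8%, 46.8% and 52.4%. The order of the libraries was the same at both depths, with the western diet libraries above the normal diet ones and, within a diet, the LysM-DKO library above the WT one, although the intervals of the normal diet pair overlapped. Among all passing barcodes members made up 9.28%, 7.29%, 20.3% and 39.6%, a share that also moves with how many other cells each digestion released. With 1 library per group none of these differences can be tested.

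Between LysM-DKO and WT on normal diet, 11386 genes had at least 20 UMIs in members, and 178 (1.56%) were at least 2 fold higher and 176 (1.55%) at least 2 fold lower. No test is possible for such a pair of libraries, and the values have no replicate check. Zbtb16, a zinc finger factor that responds to glucocorticoids, stood at 80.8 CPM in WT and 237 CPM in LysM-DKO members (log2 ratio 1.55, counting interval 1.38 to 1.72), and Esr1, oestrogen receptor alpha, at 41.2 and 115 CPM (1.48, 1.25 to 1.73). Mfap4 stood at 144 and 383 CPM, and Igf2r, the receptor that clears insulin-like growth factor 2, at 81.6 and 140 CPM. At the other end were stress genes: Hspa1b at 579 and 214 CPM, Hspa1a at 820 and 348 CPM, the chaperone Dnajb1, the phosphatase Dusp8 and Atf3 at 1193 and 696 CPM. Of the 18 dissociation stress genes 0 were at least 2 fold higher and 2 at least 2 fold lower, with a median log2 ratio of -0.39.

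Between LysM-DKO/ApoE-/- and WT/ApoE-/- on western diet, 13380 genes had enough UMIs, 241 (1.8%) at least 2 fold higher and 673 (5.03%) at least 2 fold lower. The higher genes under the naming rule were Gstp1, a glutathione transferase (49.1 CPM in WT/ApoE-/-, 129 CPM in LysM-DKO/ApoE-/-; log2 ratio 1.39, 1.25 to 1.53), Slc22a3 (94.3 and 210 CPM), Snhg18, Dpm3 and Ahsa2. The lower genes were Pttg1, securin (112 and 33.5 CPM; log2 ratio -1.75, -1.88 to -1.61), Itih4 (298 and 98.9 CPM), Igfbp2 (120 and 41.9 CPM), Map3k7cl (324 and 136 CPM) and Tent5a (347 and 156 CPM). Rgs5-low smooth muscle of the same libraries gave ratios of 1.38 for Gstp1, -1.81 for Pttg1 and -2.03 for Map3k7cl, so these differences between libraries were also seen outside the members.

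Several lists of other cells and of plaque genes had ratios far under 0 between the western diet libraries. Of 20 modulation genes 0 were at least 2 fold higher and 15 at least 2 fold lower, with a median log2 ratio of -2.63, and of 21 inflammatory genes 0 and 16, with a median of -1.92. Lum stood at 526 CPM in WT/ApoE-/- and 17.4 CPM in LysM-DKO/ApoE-/- members (log2 ratio -4.92), with 366 and 186 CPM in the lymphocyte barcodes of those libraries. The chondrocyte, macrophage and fibroblast lists moved with it, with median ratios of -3.12, -2.92 and -1.51. So did the lymphocyte (-3.31, 3 genes with enough UMIs), erythroid (-1.70, 4 genes) and adipocyte lists (-0.88, 2 genes). The part of all these lists in the result was not tested. The cardiomyocyte, Schwann and endothelial lists did not go as low. Their median ratio was 0.14 for the 4 cardiomyocyte genes with enough UMIs and -0.43 for the 3 Schwann genes, and the 1 endothelial gene stood at 0.36. The 21 contractile genes had a median ratio of 0.08, the 26 Hox genes 0.09 with none at least 2 fold apart, and Fn1 -0.08.

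**Figure D5:**
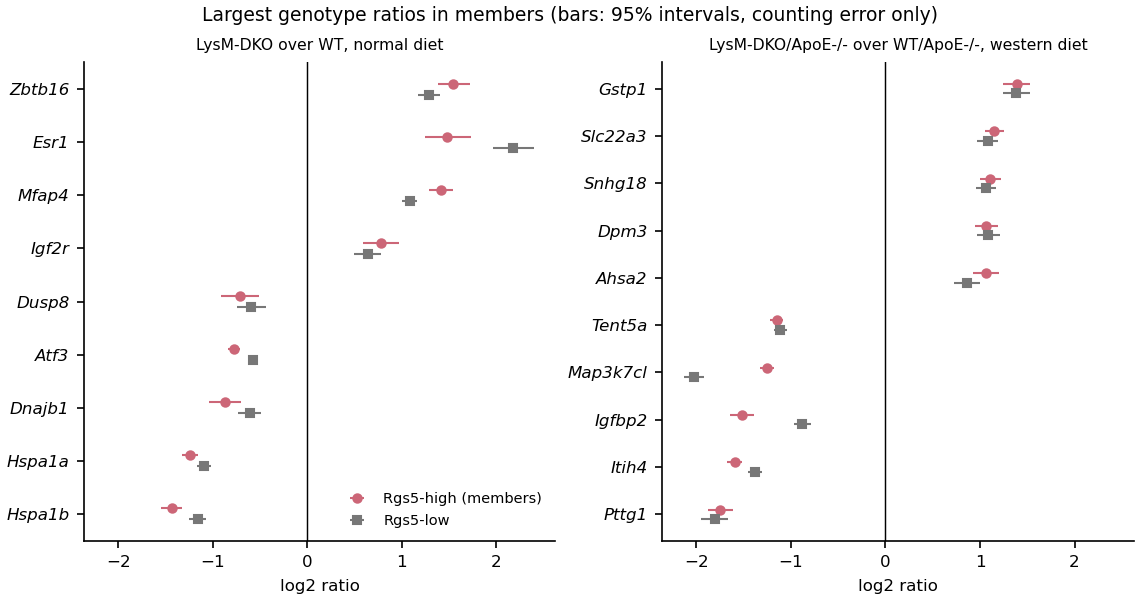
Log2 ratio of LysM-DKO over WT on normal diet (left) and of LysM-DKO/ApoE-/- over WT/ApoE-/- on western diet (right) for named genes of each contrast, in members (circles) and Rgs5-low smooth muscle (squares), with 95% counting intervals and 1 library per group. Both classes lie on the same side of 0 for every gene shown, for example Zbtb16 at 1.55 and 1.29.

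Kcnj8 and Abcc9 showed small ratios between genotypes. Under normal diet Kcnj8 had a log2 ratio of 0.21 (-0.17 to 0.59) and under western diet one of 0.06 (-0.12 to 0.23), intervals that include 0. Abcc9 differed by 0.05 (-0.09 to 0.18) and by -0.14 (-0.21 to -0.07). Between the western diet and normal diet libraries the ratios for Kcnj8 were 0.70 (0.41 to 1.01) among WT members and 0.55 (0.27 to 0.85) among LysM-DKO members, and those for Abcc9 were 0.41 (0.31 to 0.51) and 0.22 (0.12 to 0.33). Rgs5 itself, by description, stood at 3626, 2988, 3623 and 4562 CPM.

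In the contrast of western with normal diet, 607 (4.92%) of 12327 genes were at least 2 fold higher and 477 (3.87%) at least 2 fold lower in WT members, and 510 (3.93%) and 666 (5.13%) of 12988 in LysM-DKO members. Apoe stood at 42.2, 63.0, 1.66 and 1.07 CPM, as the ApoE-/- labels state. Fn1 had log2 ratios of 0.96 in WT and 0.80 in LysM-DKO. In WT the named genes toward the top were Igfbp2 (log2 ratio 2.71), Prss23, Tent5a and Gnai1, an inhibitory G-protein alpha subunit, at 152 and 313 CPM. In LysM-DKO they were Gstp1 (32.0 and 129 CPM), Slc22a3 (log2 ratio 1.51) and the chaperone genes Ahsa2, Cacybp and Chordc1. Slc22a3 had a larger ratio in WT (3.20, from 10.2 to 94.3 CPM) but fell short of the 100 CPM needed for naming there. At the lower end Ppp1r10 was among the 5 named genes of both genotypes, at 408 and 371 CPM on normal diet and 140 and 144 CPM on western diet, with Esr1, Ghr and Wsb1 in LysM-DKO and Atf3, Atp5k, Kcnab1 and Atp5mpl in WT.

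The summed CPM of the posterior Hox genes in members ranged over libraries from 96.0 to 128. Of all Hox genes with enough UMIs, 24 on normal diet and 26 on western diet, none was at least 2 fold apart between genotypes. Between diets 1 of 24 was at least 2 fold higher on western diet in WT (median log2 ratio -0.10) and 2 of 25 in LysM-DKO (median 0.32, with 19 above 0), and 0 were at least 2 fold lower in both.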

How the data were processed

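The authors deposited, for each of the 4 libraries, a matrix of unscaled UMI counts, in whole numbers, with 1 value for each gene in each barcode. Their software, per the file headers, was Cell Ranger 6.0.1 for normal diet and 6.1.2 for western diet, while the submitters' processing notes name Cell Ranger 6.1.2, Seurat 4.1.0 and mm10. The annotation release, the use of strand and any step that removes doublets or free RNA are not given in the sources used here. No value column was left unused.

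Barcodes were selected and grouped by library as the report states, with python 3.11.15 and scanpy 1.11.5. Counts were summed per library and class into 8 sums and compared with edgeR 4.0.16 (R 4.3.3): filterByExpr, TMM scaling, quasi-likelihood fit, the library as a block, two-sided, Benjamini-Hochberg adjustment over all genes, called under 0.05. The fit was tested on simulated data first. Both classes come from the same library, so the library pairs them by design. DESeq2 1.42.0 was an alternative, with a looser filter, other Rgs5 limits, thinning to 2000 UMIs, removal of marked doublets or of barcodes with Kcnj8 or Abcc9, and each library left out in turn. Ratios between libraries used genes with at least 20 UMIs in members over the pair, with 0.5 added to each count and exact binomial intervals at 95%. Doublets were scored with Scrublet in each library, and the highest scores (0.8% per 1000 barcodes scored) were marked. Lymphocyte barcodes had at least 3 UMIs of Cd79a, Cd79b, Ms4a1, Cd3d, Cd3e and Cd3g together and under 1% contractile UMIs.

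Named genes were called, had the same direction in all 4 libraries and at least 50 CPM in the higher class: the 12 largest and 12 smallest differences, or 8 and 8 among double-positive members. Between libraries they had at least 50 UMIs, 100 CPM in the higher library and there a level no lower than in other barcodes, 5 and 5 per contrast. Genes of the selection, mitochondrial, ribosomal, hemoglobin, immunoglobulin and sex-linked genes were left out of these rankings. Some genes that met the rule are not reported here. Genes of the fixed lists, with Kcnj8 and Abcc9, were named as well. The members and lists were chosen with earlier results of these data known. The class of Rgs5-rich barcodes low in contractile UMIs, the lymphocyte class, the classes of Rgs5 count and a limit of 4000 UMIs were chosen after seeing the data. Gene positions are those of GENCODE M21 (GRCm38), which matched 99.8% of 32285 features by ID.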

Additional observations from a re-analysis of the deposited data

Results flagged for a closer look

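In members, 4 named genes were flagged because their LysM-DKO to WT ratios lay on opposite sides of 0 on normal and western diet. Other named genes also changed side, among them Dpm3 (log2 ratio -0.08 on normal diet and 1.06 on western diet) and Atp5k (-0.31 and 0.78). None of these differences between ratios was tested, since each ratio compares 2 libraries. Esr1 had a log2 ratio of 1.48 on normal diet and -0.46 on western diet, a difference of 1.95. Atf3 had -0.78 and 0.08, a difference of -0.85. Snhg18 had -0.15 and 1.11, a difference of -1.26. Igfbp2 had 1.62 and -1.52, a difference of 3.14, and the same 4 libraries read by diet gave Igfbp2 ratios of 2.71 in WT and -0.43 in LysM-DKO, again 3.14 apart. The Igfbp2 levels behind both were 18.2, 56.4, 120 and 41.9 CPM, so WT on normal diet was the lowest and WT/ApoE-/- on western diet the highest.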

How the results depend on the processing

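No named call changed direction: of 1378 alternative values for 117 genes between members and Rgs5-low smooth muscle, 1177 kept their side of the threshold and 201 (59 genes) lost it, and of 98 values for 14 genes of the double-positive comparison 72 kept it and 26 lost it. The 340 genes higher in members became 178 with DESeq2, 196 after thinning to 2000 UMIs and 123 without barcodes holding Kcnj8 or Abcc9, and 200.0 to 345 with 1 library left out. The 360 lower genes became 160, 172 and 126 under the same settings, 560 without a filter on low counts and 174 to 466 with 1 library left out. The 17 Hox genes became 11 after thinning, 9 without Kcnj8 or Abcc9 barcodes and 13 to 17 with 1 library left out. Double-positive members gave 14 higher genes, but 0 with DESeq2, 2 after thinning, 31 without the filter and 10 to 35 with 1 library left out, and 9 lower genes, but 2 with DESeq2, 22 without the filter and 13 to 23 with 1 library left out. Thinning and dropping barcodes also leave fewer counts and fewer genes tested, and the cause of the other shifts was not tested.

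The share of members in the gate was 28.8%, 31.8% and 52.4% in WT normal diet, LysM-DKO normal diet and LysM-DKO/ApoE-/- after thinning with at least 2 Rgs5 UMIs, 47.4% in WT/ApoE-/- with at least 4000 UMIs and 49.0% in LysM-DKO/ApoE-/- with at most 5% mitochondrial UMIs. With an Rgs5 limit of 3 UMIs it was 40.3%, 46.2%, 53.8% and 63.0%, with 10 UMIs 24.0%, 26.1%, 29.8% and 43.0%, and with 0.1% of UMIs 26.0%, 28.5%, 42.3% and 48.5%, in the order of the report. Among genes with at least 100 UMIs, the counts at least 2 fold higher and lower were 33 and 20 between genotypes on normal diet, 90.0 and 218 on western diet, 213 and 181 between diets in WT and 192 and 178 in LysM-DKO. Of 160 alternative ratios of named genes 6 moved beyond their counting interval, and of 240 list medians 20 moved. With 1 library per group, no contrast between groups has a replicate check, and the counting intervals cover depth only.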
